A study of Mus musculus with 6 samples.

Results

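The integrated stress response factors around ATF4 are 10 genes of the 54532 in the count table: *Atf4*, its close relative *Atf5*, the bZIP partner factors *Cebpb*, *Cebpg*, *Atf3* and *Ddit3*, and the effectors *Trib3*, *Chac1*, *Ppp1r15a* and *Nupr1*. They were selected on measured values, since the list was drawn up with the difference between *Smyd1-KO* and WT hearts in these same libraries known. All values of that difference in the 10 genes are therefore given as a description. Of the table, 11 rows carry the symbols, and the second *Ddit3* row held 0 counts in every heart. *Smyd1* encodes an enzyme of heart and skeletal muscle that adds methyl groups to histones. RNA was measured by poly A RNA-seq in whole, individually extracted E9.5 mouse hearts, 3 from *Smyd1-KO* and 3 from WT embryos. The *Smyd1-KO* embryos were homozygous for a conventional null allele, not restricted to heart cells, from a *Smyd1+/-* strain of the Jackson Laboratory, no treatment is labelled, and both sexes were used. The genetic background of the embryos is not given in the sources used here. Counts on genes ran from 48627825 to 64217529 per heart.

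*Smyd1* itself stood at 101, 222 and 206 CPM (counts per 1000000 counts of the heart, with TMM scaling factors) in *Smyd1-KO* hearts 1 to 3, against 414, 379 and 269.8 CPM in WT hearts 1 to 3. Each *Smyd1-KO* heart was below each WT heart, but transcript of the gene was still counted in all of them. The log2 fold change was -1.01 (SE 0.30, adjusted P = 0.0973 by edgeR), which did not pass the threshold, whereas DESeq2 called it (adjusted P = 0.00538). The counts cover the whole gene, and the part changed in the null allele is not given in the sources used here, so they do not test for loss of the protein.

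The labelled tissue was checked against markers. The 12 cardiomyocyte markers, led in CPM by *Myh7* in each *Smyd1-KO* heart and *Myh6* in each WT heart, summed to 6669.9, 14365 and 14384 CPM in *Smyd1-KO* hearts 1 to 3 and to 14679, 14142 and 9052 CPM in WT hearts 1 to 3, and none was at 0. Their median log2 fold change was -0.11, and edgeR called 0 of 12, with 1 higher and 1 lower at an unadjusted P under 0.05 and 1 called higher by DESeq2. Without *Smyd1-KO* heart 1, edgeR called 2 of them higher and the median was 0.16. Without WT heart 1, 2 and 3 the median was 0.1, -0.05 and -0.32. Without *Smyd1-KO* heart 2 and 3 it was -0.26 and -0.29, and edgeR called 0 in each of these fits. By the sums, *Smyd1-KO* heart 1 was the lowest of the 6 hearts, and WT heart 3 the next lowest. These are whole hearts, so fewer cells of a type and less RNA per cell cannot be told apart in any value given here.

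The integrated stress response begins when kinases that sense amino acid shortage, unfolded protein, double-stranded RNA or haem and mitochondrial stress phosphorylate the translation factor eIF2. General translation then falls, while the *Atf4* mRNA, which carries short upstream reading frames, is translated more. ATF4 pairs with C/EBP factors and with CHOP, the product of *Ddit3*, and switches on genes for amino acid synthesis, amino acid uptake and tRNA charging, along with feedback genes. Because ATF4 is controlled at translation as well as transcription, its mRNA level is no measure of its protein. In the developing heart, where energy supply shifts towards mitochondria, the pathway is known for its link to mitochondrial defects.

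With edgeR, 5 of the 10 genes were called higher in *Smyd1-KO* hearts and 0 lower (adjusted P under 0.05 over all tested genes, log2 fold change beyond 0.5 in either direction). Across the 19372 tested genes, 4.28% were called and 2.86% were called higher. At an unadjusted P under 0.05, 7 of the 10 were higher and 0 lower, beside 13.1% higher and 11.9% lower of all tested genes. DESeq2 called 6 of the 10, all higher, against 9.21% of all genes it tested called and 5.94% called higher. In 7 of the 10 genes, each *Smyd1-KO* heart lay above each WT heart in CPM, as in 15.9% of tested genes, and in the other 3 the genotypes overlapped. Of the 7, *Atf5* overlapped on the scale per transcript length (TPM, defined below). Its lowest *Smyd1-KO* heart was at 46.9 TPM and its highest WT heart at 47.5 TPM. The called genes were *Chac1*, *Trib3*, *Cebpb*, *Ddit3* and *Atf4*. Their count changed with the heart left out. It was 6 without *Smyd1-KO* heart 1, 1 without WT heart 2, and 2 without each of the other 4 hearts. Calls over all genes moved in the same fits, from 830 to 1256 without *Smyd1-KO* heart 1 and to 97 without WT heart 2. They were 501 and 171 without WT heart 1 and 3, and 248 and 344 without *Smyd1-KO* heart 2 and 3. The median log2 fold change of the 10 genes was 0.923, and that of all tested genes was -0.0026.

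**Figure D1:**
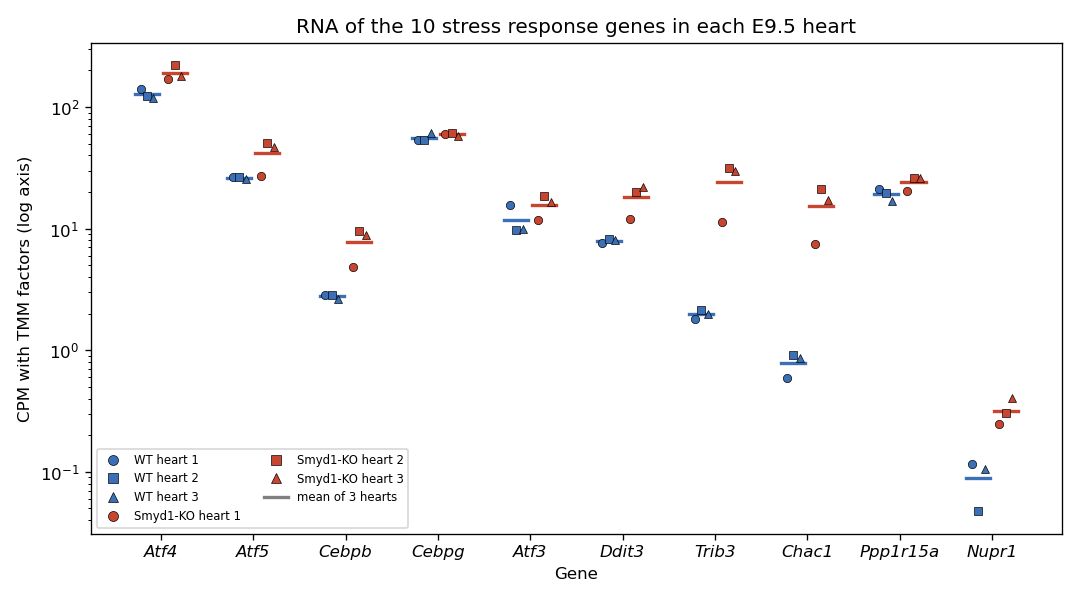
CPM (log axis) of the 10 stress response genes in each of 3 WT (blue) and 3 *Smyd1-KO* (red) E9.5 hearts, with marker shape for the heart number and a line at the mean of 3 hearts. *Trib3* and *Chac1* stand farthest apart between genotypes, and *Smyd1-KO* heart 1 is the lowest of the *Smyd1-KO* hearts in 9 of the 10 genes.

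*Atf4* (chr15:80255184-80257541, plus strand, mm10) encodes the central transcription factor of the response. Its RNA was at 171, 220.3 and 181 CPM in *Smyd1-KO* hearts 1 to 3 and at 139.7, 123 and 118 CPM in WT hearts 1 to 3. The genotypes did not overlap, and the lowest *Smyd1-KO* heart was heart 1. Its log2 fold change was 0.59 (SE 0.12, adjusted P = 0.0389), which places *Atf4* just past the fold limit. The gene was called in 1 of the 6 fits with a heart omitted, the fit without *Smyd1-KO* heart 1, and its adjusted P reached 0.165 in the others.

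*Atf5* (chr7:44812256-44816658, minus strand) encodes a relative of ATF4 that is also controlled through upstream reading frames and is linked to the mitochondrial unfolded protein response. *Smyd1-KO* hearts 2 and 3 held 50.8 and 46.7 CPM, whereas *Smyd1-KO* heart 1 held 27.0 CPM, next to WT hearts 1 to 3 at 26.6, 26.7 and 25.6 CPM. The difference thus lay in 2 of 3 *Smyd1-KO* hearts. The log2 fold change of 0.66 (SE 0.218) was not called by edgeR (adjusted P = 0.120) and was called by DESeq2 (adjusted P = 0.0307). Without *Smyd1-KO* heart 1 it was 0.89 and was called by edgeR (adjusted P = 0.00372). *Atf5* overlaps *Nup62*, a more abundant gene on the other strand, and reads of overlapping exons cannot be assigned with certainty since the strand setting of the counting is not given in the sources used here.

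Among the partner factors, *Cebpb* and *Ddit3* were called and *Cebpg* and *Atf3* were not. *Cebpb* (chr2:167688915-167690418, plus strand), which encodes a C/EBP factor that can pair with ATF4, was at 4.79, 9.56 and 8.90 CPM in *Smyd1-KO* hearts 1 to 3. In WT hearts 1 to 3 it was at 2.87, 2.82 and 2.64 CPM. The WT hearts were tightly grouped, and *Smyd1-KO* heart 1 lay between them and the other *Smyd1-KO* hearts. On the log2 scale the difference was 1.48 (SE 0.272, adjusted P = 0.0292). *Cebpb* overlaps *Tmem189* on the other strand, which held more counts in every heart (1461 to 2182). The limit given for *Atf5* holds for any overlapping exons here too.

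*Ddit3* (chr10:127290774-127296288, plus strand) encodes CHOP, a dimerisation partner that cannot bind many C/EBP sites and that is known for promoting death under prolonged stress. Its RNA came to 12.0, 20.1 and 22.2 CPM in *Smyd1-KO* hearts 1 to 3, and at 7.59, 8.19 and 8.06 CPM in WT hearts 1 to 3. No WT heart reached the lowest *Smyd1-KO* heart, again heart 1. The log2 fold change was 1.19 (SE 0.227, adjusted P = 0.0326). Like *Cebpb*, *Ddit3* was called in 1 of the 6 fits with a heart omitted, that without *Smyd1-KO* heart 1, and their adjusted P reached 0.139 for *Ddit3* and 0.134 for *Cebpb* in the others. *Ddit3* overlaps the tRNA synthetase gene *Mars* on the other strand, whose log2 fold change was 0.01 (SE 0.0732). *Mars* held more counts in every heart (7305 to 9917), so the same limit on overlapping exons holds.

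*Atf3* (chr1:191170296-191218039, minus strand) encodes an immediate stress-inducible bZIP factor. Its values overlapped, at 11.8, 18.7 and 16.6 CPM in *Smyd1-KO* hearts 1 to 3 and 15.7, 9.72 and 10.0 CPM in WT hearts 1 to 3. WT heart 1 was above *Smyd1-KO* heart 1, and the log2 fold change was 0.41 (SE 0.245, adjusted P = 0.344). It moved to 0.676 without WT heart 1 and to 0.266 without *Smyd1-KO* heart 2, and *Atf3* was called in 0 of the 6 fits with a heart omitted. *Cebpg* (chr7:35046422-35056573, minus strand), the product of which forms a stable dimer with ATF4 on amino acid genes, ranged from 58.0 to 60.9 CPM in *Smyd1-KO*, against 53.2 to 60.8 CPM in WT hearts. Its genotypes overlapped, with a log2 fold change of 0.10 (SE 0.0805, adjusted P = 0.497).

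The largest fold changes of the 10 genes were those of the effectors *Chac1* and *Trib3*. *Chac1* (chr2:119351229-119354381, plus strand), an enzyme that degrades glutathione, stood at 7.51, 21.0 and 17.1 CPM in *Smyd1-KO* hearts 1 to 3. WT hearts 1 to 3 held 0.587, 0.914 and 0.871 CPM, from 35, 58 and 58 counts. Even the lowest *Smyd1-KO* heart, heart 1 with 365 counts, stood well above the WT hearts. Between genotypes the log2 fold change was 4.26 (SE 0.426, adjusted P = 0.00464), a fold of 19.2. It was called in all 6 fits with a heart omitted, with an adjusted P of 0.046 at most.

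*Trib3* (chr2:152337422-152344032, minus strand) encodes a pseudokinase that binds ATF4 and CHOP and dampens their activity. It was at 11.4, 31.7 and 29.8 CPM in *Smyd1-KO* hearts 1 to 3 and at 1.80, 2.16 and 1.98 CPM in WT hearts 1 to 3. The genotypes were far apart, and within *Smyd1-KO* heart 1 was the low one. The log2 fold change was 3.62 (SE 0.396, adjusted P = 0.00647), a fold of 12.3. Of the 6 fits with a heart omitted, 5 called *Trib3*, and without WT heart 2 its adjusted P was 0.0522.

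*Ppp1r15a* (chr7:45522916-45526268, minus strand) encodes GADD34, the stress-inducible subunit that directs protein phosphatase 1 to eIF2 and so closes the loop. Here the hearts overlapped, at 20.3, 26.3 and 26.2 CPM in *Smyd1-KO* hearts 1 to 3 and 21.2, 19.7 and 17.0 CPM in WT hearts 1 to 3. Its log2 fold change was 0.33 (SE 0.142, adjusted P = 0.202).

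*Nupr1* (chr7:126623249-126630861, minus strand), a small stress-induced chromatin protein gene, was near the limit of counting, with 12, 18 and 23 counts in *Smyd1-KO* hearts 1 to 3 and 7, 3 and 7 in WT hearts 1 to 3. At least 10 counts were found in 3 *Smyd1-KO* and 0 WT hearts, so it entered the test only through the group in which it was higher. All 10 genes passed the filter on low counts, but a count or median over them therefore carries no weight as support. For *Nupr1* the log2 fold change was 1.81 (SE 0.448, adjusted P = 0.0636).

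Levels were compared between genes per transcript length, as TPM (counts over exonic length, scaled to the same sum in every heart). In WT hearts *Atf4* led with 189 ± 6.98 TPM (SD, n = 3), above 95.7% of tested genes. *Atf5* followed with 46.4 ± 1.76 TPM, then *Cebpg* with 35.0 ± 4.44 TPM, and at these top 3 places the ranges of neighbours did not overlap. *Ppp1r15a* (23.0 ± 1.41 TPM), *Atf3* (19.2 ± 4.46 TPM) and *Ddit3* (16.3 ± 1.44 TPM) came next, each overlapping its neighbour. *Cebpb* (6.49 ± 0.144 TPM), *Trib3* (3.28 ± 0.418 TPM), *Chac1* (1.71 ± 0.450 TPM) and *Nupr1* (0.125 ± 0.0511 TPM) were each below all hearts of the one before. The genes at the bottom of the WT order, *Cebpb*, *Trib3*, *Chac1* and *Nupr1*, were those with the largest log2 fold changes. The WT level is also the base of the fold change, and the list was drawn up with that difference known. This order is therefore no separate result.

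In *Smyd1-KO* hearts *Atf4* again led, with 274 ± 34.3 TPM, and *Atf5* came after it with 70.6 ± 20.7 TPM. *Trib3* now took the third place with 38.7 ± 17.5 TPM, and *Chac1* reached 31.4 ± 14.0 TPM. From *Atf5* down through *Trib3*, *Cebpg* (36.1 ± 1.14 TPM), *Ddit3* (35.8 ± 10.2 TPM), *Chac1*, *Ppp1r15a* (28.0 ± 3.53 TPM), *Atf3* (24.7 ± 5.19 TPM) and *Cebpb* (17.5 ± 5.60 TPM), each gene overlapped the next. Genes farther apart in this order did not all overlap, since the lowest *Atf5* heart (46.9 TPM) was above every heart of *Cebpg*, *Ddit3*, *Chac1*, *Ppp1r15a*, *Atf3* and *Cebpb*, and the lowest *Cebpg* heart (34.9 TPM) above every heart of *Ppp1r15a*, *Atf3* and *Cebpb*. *Atf4* and, at 0.429 ± 0.103 TPM, *Nupr1* overlapped no other member.

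The hearts of 1 genotype did not hold these transcripts at 1 level. *Smyd1-KO* heart 1 had the lowest value of the *Smyd1-KO* hearts in 9 of the 10 genes, the exception being *Cebpg*, and it was the lowest in 39.7% of all tested genes. The median over the 10 genes of the log2 difference from the WT mean was 0.51 in *Smyd1-KO* heart 1, 1.14 in heart 2 and 1.15 in heart 3. It lay between -0.02 and 0.03 in the WT hearts. With the genotype means removed, the Pearson r over the 6 hearts was above 0.8 in 14 of the 45 pairs of these genes, and in 7.76% of all pairs of tested genes. The closest pair was *Atf5* and *Cebpb* (r = 0.998), *Trib3* and *Chac1* reached 0.957, and the lowest was *Cebpg* and *Ppp1r15a* (r = -0.62). WT hearts varied little in *Atf5* (25.6 to 26.7 CPM) and *Cebpb* (2.64 to 2.87 CPM). The r of that pair thus rested mainly on *Smyd1-KO* heart 1 lying below *Smyd1-KO* hearts 2 and 3. All these r values are a description of 6 hearts. *Smyd1-KO* heart 1 also had the fewest counts and the lowest cardiomyocyte sum and *Smyd1* value of the 6 hearts. The part of these features in the lower values of heart 1 was not tested.

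Over all 6 hearts, genotype difference included, the genes most like 3 of the members were sought among 10352 non-member genes whose log2 CPM averaged 3 or more. For *Atf4* they were *Zfp316* (r = 0.9899), *Igfbp3* (r = 0.9896) and *Alkbh3* (r = 0.9888). For *Trib3* they were *Ankzf1* (r = 0.9988), the cysteinyl-tRNA synthetase gene *Cars* (r = 0.9974), which is a known ATF4 target, and *Mxi1* (r = 0.9973). For *Chac1* they were *Fam169a* (r = 0.9984), *Zfp383* (r = 0.9982) and *Ankzf1* (r = 0.9976). These r values include the genotype difference and describe 6 hearts only.

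Among 40 known targets of ATF4 listed outside the 10 genes, 38 were tested, of which 15 were called higher, 0 were called lower and 23 were not called. This list and those below were also chosen with earlier results of these data known, so their counts are a description. Of all genes tested, edgeR called 2.86% higher and 1.42% lower, and DESeq2 5.94% and 3.27%. These shares hold for the lists below as well. A positive log2 fold change was found in 35 of them, with a median of 0.45, and in 49.8% of all tested genes. At an unadjusted P under 0.05, 25 were higher and 1 was lower by edgeR (13.1% and 11.9% of all tested genes, which holds for the same counts below), and DESeq2 called 17 higher and 0 lower. *Fgf21* and *Gdf15*, which encode secreted stress hormones, were too low to test. Left-out hearts moved the count called higher to 14, 6 and 9 without WT heart 1, 2 and 3. Without *Smyd1-KO* heart 1, 2 and 3 it was 18, 11 and 13, and 1 was called lower without *Smyd1-KO* heart 1. Over all genes, the count called higher moved from 555 to 362, 89 and 130 without WT heart 1, 2 and 3. It was 809, 197 and 274 without *Smyd1-KO* heart 1, 2 and 3, and 447 were called lower without *Smyd1-KO* heart 1.

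The largest log2 fold changes of this list were those of *Ddit4*, *Stc2*, *Slc7a3* and *Vldlr*. *Ddit4*, an inhibitor of mTORC1 signalling, was at 607, 539.6 and 518 CPM in *Smyd1-KO* hearts 1 to 3 and at 76.0, 63.2 and 70.9 CPM in WT hearts 1 to 3. Here *Smyd1-KO* heart 1 was the highest heart, unlike in *Trib3* and *Chac1*, and the log2 fold change was 2.99 (SE 0.114, adjusted P = 0.000126). *Stc2*, which encodes a secreted glycoprotein, was at 97.6 ± 13.2 CPM (SD, n = 3) in *Smyd1-KO* against 12.4 ± 0.183 CPM in WT hearts, a log2 fold change of 2.98 (SE 0.115, adjusted P = 0.000126). *Vldlr*, a lipoprotein receptor gene, was at 121 ± 26.6 and 21.0 ± 0.707 CPM, a log2 fold change of 2.53 (SE 0.166, adjusted P = 0.000869). *Ddit4*, *Stc2* and *Vldlr*, which are also known to respond to low oxygen, were called in all 6 fits with a heart omitted.

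The cationic amino acid transporter gene *Slc7a3* was at 14.3 ± 5.64 CPM in *Smyd1-KO* against 2.01 ± 0.476 CPM in WT hearts, a log2 fold change of 2.83 (SE 0.354, adjusted P = 0.00941), and it was not called without WT heart 2 or WT heart 3 (adjusted P of 0.0618 at most). The other 11 called genes, named after their values were seen, had log2 fold changes from 0.63 to 1.42. They were *Asns*, *Shmt2*, *Mthfd2*, *Pycr1* and *Gpt2* of amino acid and folate metabolism, the transporter genes *Slc7a5*, *Slc3a2* and *Slc1a4*, the tRNA synthetase genes *Cars* and *Sars*, and *Sesn2*, which restrains mTORC1. Of these, *Shmt2*, *Gpt2* and *Slc3a2* were called in all 6 fits with a heart omitted. *Slc7a5* and *Slc3a2*, whose products form the heterodimer that imports leucine, had log2 fold changes of 1.06 (SE 0.112, adjusted P = 0.00562) and 0.66 (SE 0.0676, adjusted P = 0.0051), and *Slc7a5* was not called without WT heart 2 (adjusted P = 0.0515).

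Split by function after the values were seen, 5 of 10 synthesis genes, 4 of 9 transporter genes, 2 of 13 tRNA synthetase and tRNA export genes and 4 of 6 tested growth control or secreted genes were called. The median log2 fold changes were 0.72, 0.64, 0.11 and 1.98 in that order. The tRNA genes thus lay closest to 0, and *Eprs*, the gene of the whole list with the most CPM in each WT heart, had a log2 fold change of 0.09 (SE 0.0897, adjusted P = 0.572), while *Ddit4* had the most CPM in each *Smyd1-KO* heart. Short of the fold limit, *Wars* had a log2 fold change of -0.43 (SE 0.0778, adjusted P = 0.0283) and *Aldh18a1* of 0.42 (SE 0.0745, adjusted P = 0.0258). These and *Slc1a5* are named after their values were seen. *Slc1a5* had the lowest log2 fold change of the list, -0.96 (SE 0.535, adjusted P = 0.312). In CPM *Slc1a5* was at 53.5, 13.5 and 15.2 in *Smyd1-KO* hearts 1 to 3 and at 59.3, 35.1 and 65.3 in WT hearts 1 to 3, so the overlap came from *Smyd1-KO* heart 1, and without that heart it was called lower (log2 fold change -1.89, adjusted P = 0.0116).

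**Figure D2:**
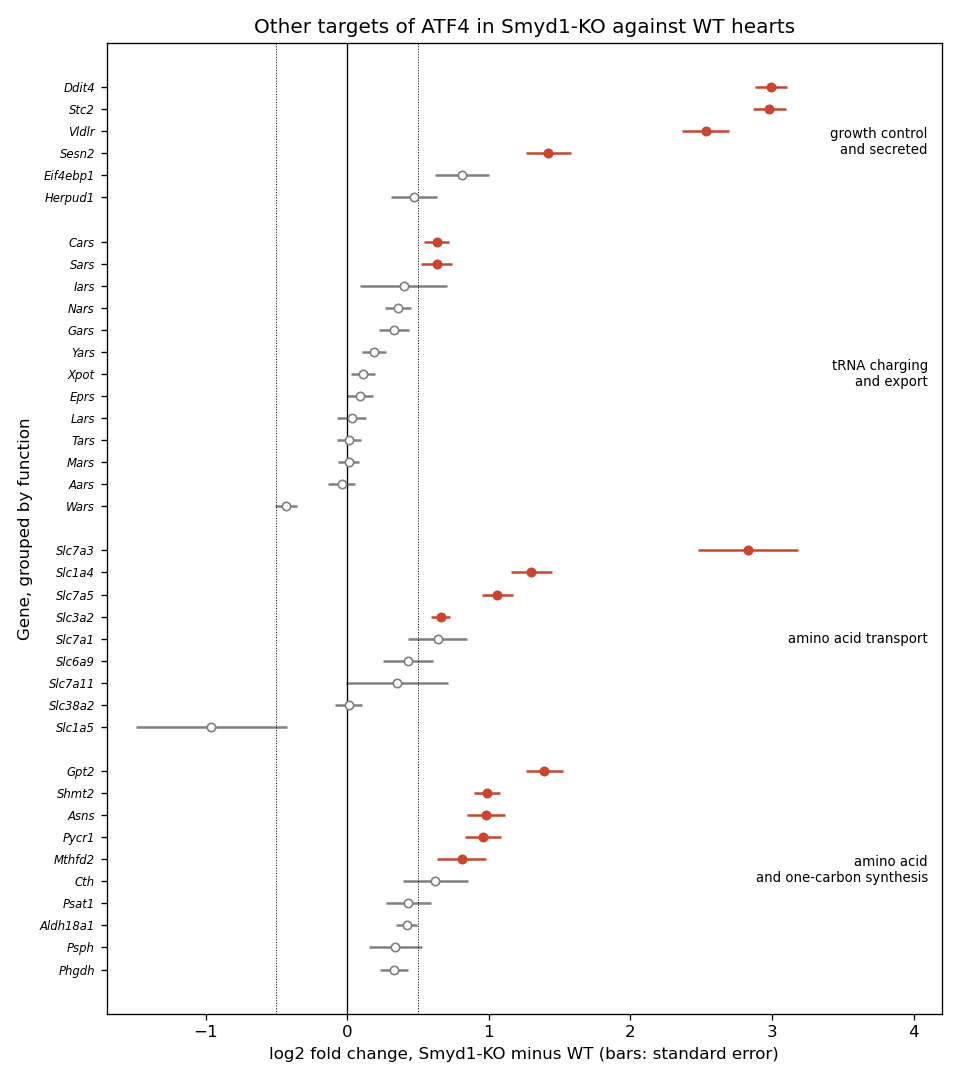
Log2 fold change (*Smyd1-KO* minus WT, 3 hearts each, bars are standard errors) of 38 tested targets of ATF4 outside the 10 genes, grouped by function, with filled red points for called genes and dotted lines at the fold limit of 0.5. The 15 called genes all lie to the right, and the tRNA genes lie nearest to 0.

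Upstream of ATF4, RNA of the sensors did not pass the thresholds. The list of the 4 eIF2 kinases and their relay had 8 tested genes, of which edgeR called 0, with 0 higher and 2 lower at an unadjusted P under 0.05, and DESeq2 called 0. The 4 kinases are named after their values were seen. *Eif2ak1*, the haem-regulated kinase that also relays mitochondrial stress, was at 43.6 ± 1.5 CPM in *Smyd1-KO* against 58.0 ± 2.28 CPM in WT hearts (SD, n = 3), a log2 fold change of -0.41 (SE 0.073, adjusted P = 0.0264) short of the fold limit. *Eif2ak3*, which encodes PERK of the endoplasmic reticulum, had a log2 fold change of 0.11 (SE 0.0978, adjusted P = 0.541), the amino acid sensor gene *Eif2ak4* one of 0.15 (SE 0.139, adjusted P = 0.536), and *Eif2ak2*, the sensor gene for double-stranded RNA, one of -0.18 (SE 0.116, adjusted P = 0.385). *Gcn1l1*, the most abundant of the list in CPM and the ribosome-bound activator of the amino acid sensor, had a log2 fold change of -0.34 (SE 0.122, adjusted P = 0.137). These kinases are switched on by their signals and not by their RNA level, so RNA does not show whether they were active.

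Subunits of eIF2, of its exchange factor eIF2B and of its phosphatase gave 0 calls in 12 tested genes by edgeR and by DESeq2, with 1 higher and 2 lower at an unadjusted P under 0.05. *Eif2b4*, named after its values were seen, had a log2 fold change of -0.47 (SE 0.0807, adjusted P = 0.0228), short of the fold limit, and without *Smyd1-KO* heart 1 the list had 1 gene called lower. The phosphatase subunit gene *Ppp1ca*, the most abundant of the list in CPM, had a log2 fold change of -0.09 (SE 0.0925, adjusted P = 0.573).

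The endoplasmic reticulum has further arms of stress signalling, run by ATF6 and by IRE1 with XBP1, whose targets are chaperones and folding enzymes. Of 22 tested genes of their list, 0 were called higher and 4 lower, by edgeR and by DESeq2, beside 1.42% and 3.27% of all genes they tested called lower, and 0 were higher at an unadjusted P under 0.05, against 6 lower. The median log2 fold change was -0.12, and 4 of the 22 were positive. By log2 fold change, the called genes were the chaperone gene *Hyou1* (-0.60, SE 0.0987, adjusted P = 0.021), *Creld2* (-0.54, SE 0.117, adjusted P = 0.0438), and the co-chaperone genes *Dnajc3* (-0.52, SE 0.0805, adjusted P = 0.0183) and *Dnajb11* (-0.52, SE 0.0975, adjusted P = 0.0314). *Hyou1* was at 248, 209 and 211 CPM in *Smyd1-KO* against 328, 328 and 355 CPM in WT hearts 1 to 3, with no overlap. The main chaperone of that compartment, *Hspa5*, also the most abundant of the list by mean CPM, was at 1129.5 ± 35.3 CPM in *Smyd1-KO* against 1290 ± 147 CPM in WT hearts, a log2 fold change of -0.19 (SE 0.108, adjusted P = 0.318). With a heart omitted, 2 genes were called lower without *Smyd1-KO* heart 1 and 0 without any 1 of the other 5 hearts. Over all genes, 275 were called lower in the main fit and 447 without *Smyd1-KO* heart 1. Without WT heart 1, 2 and 3 these were 139, 8 and 41, and without *Smyd1-KO* heart 2 and 3 they were 51 and 70. In these fits *Hyou1* stayed past the fold limit (-0.68 to -0.55). The values nearest 0 were -0.41 for *Creld2*, -0.46 for *Dnajc3* and -0.42 for *Dnajb11*.

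Downstream of CHOP, 7 genes of death and oxidative folding were tested and 1 was called higher. This was *Ero1l*, an oxidase of the endoplasmic reticulum that is known as a CHOP target and also as a gene that responds to low oxygen, and it was the most abundant of the list in CPM. Its RNA came to 260.2, 283 and 283 CPM in *Smyd1-KO* hearts 1 to 3 and 72.8, 70.8 and 68.7 CPM in WT hearts 1 to 3, a log2 fold change of 1.96 (SE 0.0787, adjusted P = 0.000126) that was called in all 6 fits with a heart omitted. The pro-apoptotic genes *Bbc3*, *Bcl2l11*, *Pmaip1* and *Tnfrsf10b*, named for their role after their values were seen, were not called by edgeR, and of these *Bbc3* was closest, with a log2 fold change of 0.66 (SE 0.169, adjusted P = 0.0694). DESeq2 called 2 genes of the list higher, *Ero1l* and *Bbc3*, and 1 lower. The latter was *Dusp8*, named after its values were seen, with a log2 fold change of -1.42 by edgeR (SE 0.352, adjusted P = 0.0636) and each *Smyd1-KO* heart below each WT heart.

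Mitochondrial chaperones and proteases, which mark mitochondrial protein stress, gave 1 call in 8 tested genes by edgeR and by DESeq2. *Lonp1*, a matrix protease gene and itself a reported ATF4 target, was at 304 ± 23.5 CPM in *Smyd1-KO* against 208 ± 6.15 CPM in WT hearts (SD, n = 3), a log2 fold change of 0.55 (SE 0.0882, adjusted P = 0.0199), and it was called in 2 of the 6 fits with a heart omitted, those without WT heart 1 and without *Smyd1-KO* heart 1. *Hspd1*, the most abundant of the list in CPM, had a log2 fold change of -0.18 (SE 0.111, adjusted P = 0.354). Transcripts encoded by mitochondria themselves made up 0.758, 0.691 and 0.622% of counts in *Smyd1-KO* hearts 1 to 3 and 1.338, 1.149 and 1.172% in WT hearts 1 to 3, without overlap, and their part in the values of the stress genes was not tested. When mitochondrially encoded and haemoglobin genes were removed before scaling, 5 of the 10 members and 15 of the other targets of ATF4 were called, as before.

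Targets of p53, another stress pathway, were on both sides of 0, with a median log2 fold change of 0.03 over 10 tested genes. The exonuclease gene *Aen* was called lower (log2 fold change -0.70, SE 0.10, adjusted P = 0.0142), and it was called in 3 of the 6 fits with a heart omitted, not without WT heart 2, WT heart 3 or *Smyd1-KO* heart 2. The list's most abundant gene in CPM, *Bax*, had a log2 fold change of -0.02 (SE 0.0982, adjusted P = 0.903). DESeq2 called 1 gene higher and 2 lower, and edgeR called 2 lower without *Smyd1-KO* heart 1.

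Relatives of the members were listed to see whether whole gene families differed. Of 20 tested bZIP, Tribbles and gamma-glutamylcyclotransferase genes, 2 were called higher and 0 lower by edgeR, 6 were higher and 1 lower at an unadjusted P under 0.05, and 4 were called higher by DESeq2. *Fosl2* was at 36.2 ± 12.4 CPM in *Smyd1-KO* against 14.8 ± 1.57 CPM in WT hearts (log2 fold change 1.29, SE 0.245, adjusted P = 0.0321). *Fos* was at 8.29 ± 1.26 and 3.61 ± 0.920 CPM (log2 fold change 1.20, SE 0.237, adjusted P = 0.0356). Both encode AP-1 subunits, and both were called in 1 of the 6 fits with a heart omitted, that without *Smyd1-KO* heart 1, in which 4 relatives were called higher. In contrast to *Trib3* and *Chac1*, named here after their values were seen, *Trib1* had a log2 fold change of -0.33 (SE 0.0939, adjusted P = 0.0834), *Trib2* one of -0.16 (SE 0.142, adjusted P = 0.524) and *Chac2* one of 0.39 (SE 0.17, adjusted P = 0.207). *Nfe2l1*, the most abundant relative in CPM, had a log2 fold change of -0.13 (SE 0.0834, adjusted P = 0.364).

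**Figure D3:**
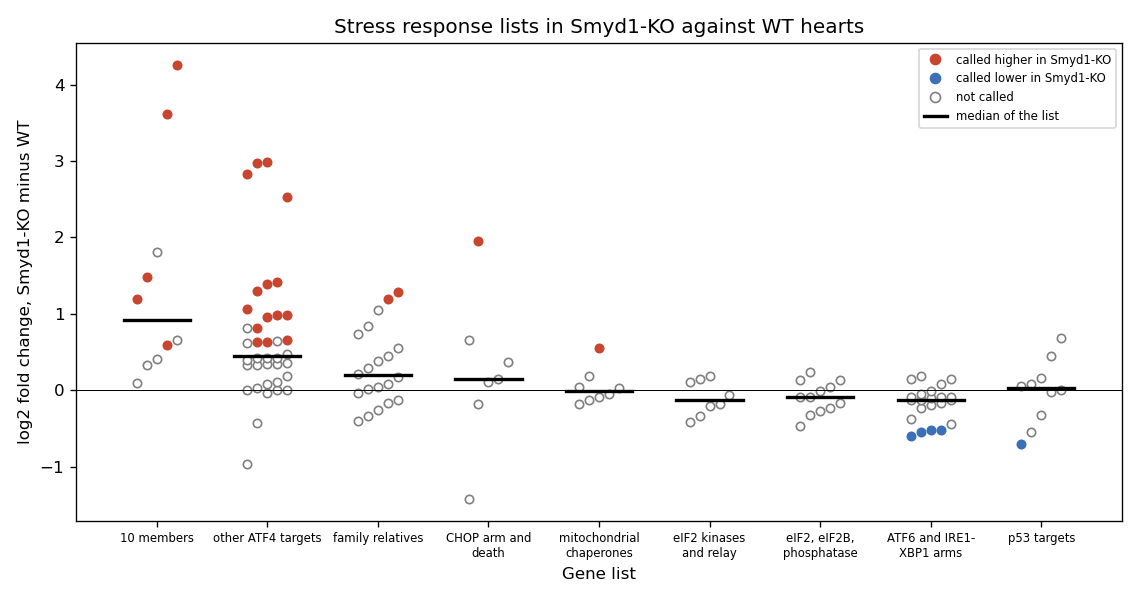
Log2 fold change (*Smyd1-KO* minus WT, 3 hearts each) of each tested gene in 9 stress response lists, with filled points for called genes, open points for genes not called and a black line at each list's median. The median is 0.45 for the other targets of ATF4 and -0.12 for the ATF6 and IRE1-XBP1 arms, where 4 genes were called lower.

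Markers of other cells in the heart were read beside these values. Erythroid markers separated the genotypes: their 9 genes summed to 24.2, 276 and 158 CPM in *Smyd1-KO* hearts 1 to 3 and to 743, 992 and 954 CPM in WT hearts 1 to 3, with *Hbb-y* the most abundant in CPM in each *Smyd1-KO* heart, *Hba-x* in each WT heart and none at 0. All 9 had a negative log2 fold change, with a median of -2.80, and 3 were called lower (log2 fold changes *Gata1* -3.14, *Ermap* -2.90 and *Alas2* -2.19), while DESeq2 called 7. Without *Smyd1-KO* heart 1 edgeR called all 9, and with 1 of the other hearts left out it called 1 without WT heart 1 and 0 without any of the other 4. *Smyd1-KO* heart 1 was lowest here too, and the part of blood cell content in the values of the stress genes was not tested.

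Endothelial and endocardial markers summed to 762, 922 and 1175 CPM in *Smyd1-KO* hearts 1 to 3 and to 795, 855 and 711 CPM in WT hearts 1 to 3. The most abundant in CPM was *Kdr*, with a log2 fold change of 0.70 (SE 0.167, adjusted P = 0.0569). Of 10 tested, 1 was called higher, *Flt1* (log2 fold change 1.15, SE 0.182, adjusted P = 0.0192), and it was called in 2 of the 6 fits with a heart omitted, those without *Smyd1-KO* heart 1 or 3. Without *Smyd1-KO* heart 1, 3 endothelial genes were called higher. At an unadjusted P under 0.05, 4 were higher and 2 lower, and DESeq2 called 2 higher and 2 lower. Those lower were *Nfatc1* (log2 fold change by edgeR -0.83, SE 0.213, adjusted P = 0.0687) and *Npr3* (-0.52, SE 0.122, adjusted P = 0.0567), named after their values were seen, and in both each *Smyd1-KO* heart was below each WT heart. Epicardial markers, led by mean CPM by *Upk3b* in *Smyd1-KO* and *Tbx18* in WT hearts, summed to 159, 229.9 and 282 CPM in *Smyd1-KO* against 146, 125 and 155 CPM in WT hearts 1 to 3, and of the 7 tested edgeR called 0 and DESeq2 called 2 higher, with 2 higher and 0 lower at an unadjusted P under 0.05, and edgeR called 3 higher without *Smyd1-KO* heart 1. Cushion mesenchyme markers, led by mean CPM by *Col1a1* in *Smyd1-KO* and *Twist1* in WT hearts, summed to 993, 635 and 3144 CPM in *Smyd1-KO* against 703, 509 and 660 CPM in WT hearts 1 to 3, with *Smyd1-KO* heart 3, the only heart in which *Col1a1* led, far above the rest. Neither edgeR nor DESeq2 called any of the 6, and 4 were higher and 0 lower at an unadjusted P under 0.05.

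Neural crest and neural markers, led by *Sox2*, summed to 215, 61.6 and 15.2 CPM in *Smyd1-KO* against 29.3, 32.0 and 49.3 CPM in WT hearts 1 to 3, so *Smyd1-KO* heart 1 stood apart on this list as well. Of the 5 tested, edgeR and DESeq2 called 0, with 1 higher and 0 lower at an unadjusted P under 0.05. *Sox1* did not pass the filter on low counts, at 29.9 CPM in *Smyd1-KO* heart 1 and at most 0.203 CPM in the other hearts. With no such filter edgeR called it higher (log2 fold change 7.83, adjusted P = 0.0487). Foregut and liver endoderm markers, led by mean CPM by *Epcam* in *Smyd1-KO* and *Cdh1* in WT hearts, summed to 157, 132 and 163 CPM in *Smyd1-KO* against 81.5, 151 and 154 CPM in WT hearts 1 to 3, with 0 of 7 called by edgeR or DESeq2 and 0 past an unadjusted P of 0.05. Macrophage markers were close to absent, with a sum of 0.74 to 1.73 CPM per heart, *Csf1r* the most abundant by mean CPM, and 2 of 8 genes high enough to test, of which edgeR and DESeq2 called 0 and 0 passed an unadjusted P of 0.05. The other 6, *Cx3cr1*, *C1qa*, *C1qb*, *C1qc*, *Tyrobp* and *Ptprc*, were all at 0 counts in WT heart 2, and all but *Tyrobp* were at 0 in at least 1 more heart. Among the endoderm markers *Alb* was at 0 counts in *Smyd1-KO* heart 2, and every listed endothelial, epicardial, mesenchymal and neural marker was counted in each heart. The part of endothelial, epicardial, mesenchymal, neural and endodermal cells in the values of the stress genes was not tested.

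The members were also compared in features other than the measured values. Members and other targets were listed as known genes of the ATF4 pathway, so a share with an ATF4 site may not be independent of that choice. They lie on 5 chromosomes, with 3 on chromosome 2 and 4 on chromosome 7. Promoter windows from RefSeq (GRCm38.p6, 250 bases before to 50 bases after each gene start) were found for all 10 members, 11 windows in all. Both strands were searched for TGATGNAA, the core of the composite site that ATF4 binds with C/EBP partners. The letters occurred in 4 of the 10 members, *Atf3*, *Chac1*, *Nupr1* and *Trib3*, in 12 of the 30 other targets of ATF4 with a window, and in 4.51% of all 27025 genes with a window. With bases before the RefSeq start only, 3 members and 9 other targets held them, as did 3.91% of all these genes. In *Atf3*, *Chac1* and *Nupr1* the match had the same letters, TTGCATCA as read along the gene, and began 110, 193 and 110 bases before the RefSeq start, whereas the *Trib3* match, TTACATCA, began 14 bases past the RefSeq start. By the GENCODE spans given above, the matches of *Atf3* and *Nupr1* lay inside the gene and that of *Trib3* before its start. The windows of all 4 are shown, and capitals mark the match.
Atf3, chr1:191183425-191183454, minus strand: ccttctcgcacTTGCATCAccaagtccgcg
Chac1, chr2:119351038-119351067, plus strand: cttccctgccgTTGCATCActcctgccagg
Nupr1, chr7:126625562-126625591, minus strand: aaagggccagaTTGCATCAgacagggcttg
Trib3, chr2:152344028-152344057, minus strand: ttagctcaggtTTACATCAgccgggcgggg

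Among the other targets of ATF4 that were called, *Asns*, *Pycr1*, *Slc1a4* and *Vldlr* held the same motif, and their windows are printed for comparison with those of the members. The match began 23 bases before the RefSeq start in *Asns*, 103 in *Pycr1*, 4 in *Slc1a4* and 200 in *Vldlr*. That of *Slc1a4* thus ran across the start. By GENCODE the matches of *Asns* and *Vldlr* lay inside the gene. The other 8 targets with the motif were not called or not tested (*Aars*, *Fgf21*, *Gars*, *Herpud1*, *Iars*, *Slc7a11*, *Tars* and *Yars*), and of the 15 called, 8 had a window without it and 3 had no window. Genes without these letters in the window included *Ddit4* and *Stc2*, with the largest log2 fold changes of that list, which says only that the letters are not in this window.
Asns, chr6:7693214-7693243, minus strand: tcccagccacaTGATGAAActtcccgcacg
Pycr1, chr11:120643833-120643862, minus strand: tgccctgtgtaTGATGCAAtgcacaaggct
Slc1a4, chr11:20332699-20332728, minus strand: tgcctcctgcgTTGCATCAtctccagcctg
Vldlr, chr19:27216809-27216838, plus strand: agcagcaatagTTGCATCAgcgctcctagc

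The palindrome TGACGTCA, the cAMP response element bound by many bZIP dimers, was found in 1 member, *Ppp1r15a*, in 0 of the 30 other targets of ATF4 and in 2.03% of all genes with a window. It reads the same on both strands and shares no match with the first motif in these genes. The *Ppp1r15a* match began 12 bases before the gene start. A match describes letters in the reference and shows neither binding nor a cause of the measured differences.
Ppp1r15a, chr7:45526262-45526291, minus strand: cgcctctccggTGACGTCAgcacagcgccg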

How the data were processed

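RNA-seq values came from 6 individual E9.5 hearts, 3 *Smyd1-KO* and 3 WT, grouped by the labels. The authors selected poly A RNA, aligned paired-end reads to mm10 with STAR, and deposited raw counts per gene, which are whole numbers without normalization. The counting tool, annotation release and strand setting are not given in the sources used here. Their table of normalized counts was not used.

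Counts were tested in R 4.3.3 with edgeR 4.0.16 (filterByExpr, TMM, quasi-likelihood test of genotype, Benjamini-Hochberg adjustment over 19372 genes), after a trial on simulated data. Calls needed an adjusted P under 0.05 and a log2 fold change of 0.5 or more in either direction. Standard errors were derived as the log2 fold change over the root of its F statistic. Log2 CPM had a prior count of 2. Replicates varied by a biological coefficient of variation of 22.5%. Exonic lengths for TPM and gene positions came from GENCODE M21 on the same build, in which 54409 genes were matched. Tables and plots were made in Python 3.11.15 with pandas 2.3.3 and matplotlib 3.10.9.

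The members and lists were chosen with earlier results of these data known. Named genes are the members, the called genes of each list (at most 4 per direction, by size of the log2 fold change) with its most abundant gene, *Smyd1*, and the 3 genes most like *Atf4*, *Trib3* and *Chac1*. Others are marked as named after their values were seen, or are named for overlapping a member, for a motif, for a count of 0 or for not being tested. The most abundant gene was taken by mean CPM over all hearts, and by genotype where these differed. 0610009B22Rik, listed as another symbol of *Dele1*, has a row of its own and was left out. Of the erythroid markers, 1 is not reported here.

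Alternatives were DESeq2 1.42.0, RLE or upper-quartile scaling, no filter or at least 10 counts in every heart, no fold limit, removal of mitochondrially encoded and haemoglobin genes, the replicate number as a block, each heart left out, and bases before the gene start only.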

Additional observations from a re-analysis of the deposited data

How the results depend on the processing

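The log2 fold changes of the members were positive under each alternative that gave a value, and *Nupr1* was not tested with at least 10 counts required in every heart. Under the 8 settings that kept all hearts, 75 of 79 member values stayed on their side of the thresholds, *Atf5* was called by DESeq2, and *Atf4*, *Ddit3* and *Cebpb* were not called with the replicate block. DESeq2 called 1747 genes in all, against 830 by edgeR, and the cause was not tested.

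Hearts with the same number deviated from their genotype means with correlations of -0.216, -0.0538 and -0.182. These values gave no sign that the numbers pair hearts. They cannot exclude it, since there are few hearts per genotype and their deviations from a shared mean depend on each other. With the replicate block in the model, 59 genes, 2 members (*Chac1* and *Trib3*) and 4 other targets of ATF4 were called. This fit has fewer residual degrees of freedom.

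In the 6 fits that omitted 1 heart, genes called ran from 97 to 1256, of members from 1 to 6 and of other targets of ATF4 from 6 to 19. The lowest counts came without WT heart 2 and the highest without *Smyd1-KO* heart 1. Of the 60 member values, 43 stayed on their side of the thresholds, 16 were no longer called and 1 was newly called.

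*Cebpg*, *Atf3* and *Ppp1r15a* lay below the fold limit in the main fit, and *Nupr1* rested on 3 to 23 counts per heart.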
